A study of Mus musculus with 6 samples.

Results

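Genes for the synthesis of leukotrienes and prostaglandins were followed in GFP-positive cells of the mouse embryo sorted by the mannose receptor CD206. The set was chosen by symbol and holds 10 genes (Ltc4s, Alox5, Alox5ap, Lta4h, Ptgs1, Ptgs2, Hpgds, Ptges, Tbxas1 and Hpgd) of the 51912 gene identifiers listed in each count file, and all 10 were found. The cells came from the aorta-gonad-mesonephros (AGM), the region around the dorsal aorta where haematopoietic stem cells arise, in embryos at E10.5 (day of embryonic development). All embryos carried the MacGreen transgene (Csf1r-EGFP), in which the Csf1r promoter drives EGFP in the macrophage lineage and in some of its precursors. Both groups were GFP-positive and differed in surface CD206: GFP+CD206- cells (called CD206neg) and GFP+CD206+ cells (called CD206pos). The cells came from 3 independent litters, and there were 3 libraries per group, 6 in all, each of cells pooled from 3 to 5 AGM. The titles number the libraries of each group 1 to 3, and the labels do not say that a number is a litter.

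Both families of lipid mediators start from arachidonic acid, which phospholipases release from membranes. Cyclooxygenases turn it into prostaglandin H2, from which separate terminal synthases make prostaglandin D2, prostaglandin E2 or thromboxane. The lipoxygenase encoded by Alox5, helped by the membrane protein FLAP (Alox5ap), makes leukotriene A4. Leukotriene A4 then goes either to leukotriene B4, a neutrophil attractant made by the hydrolase Lta4h, or to leukotriene C4, the first cysteinyl leukotriene, made by Ltc4s. Macrophages, mast cells and granulocytes are known producers of leukotrienes, and platelets of thromboxane.

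The libraries held 16730846 to 18214283 reads assigned to genes. Levels are given as CPM (counts scaled to a common total per library, with TMM factors). Group levels are means ± SD (n = 3 libraries). Where genes are compared with each other, levels are RPKM (the same CPM per kilobase of exon). A positive log2 fold change (with its SE) means a higher level in CD206pos, and adjusted p values are from edgeR's quasi-likelihood test over all 12668 tested genes. Mrc1, which encodes the sorted antigen, was at 51.5 to 118.3 CPM in CD206neg and 1456 to 1790 CPM in CD206pos, which checks the labels. Of 10 macrophage marker genes, all had reads in every library, and 7 rose in CD206pos (Adgre1, Cd68, Fcgr1, C1qa, C1qb, C1qc and Aif1), beside 2.97% of all tested genes. The summed level of the 10 markers was 3689 to 4378 CPM in CD206neg and 8590 to 11420 CPM in CD206pos. Their part in the rises described here was not tested. In sorted bulk cells, fewer cells of a type and less RNA per cell cannot be told apart.

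The upstream sequences of the 4 enzyme genes that passed the test are shown for what lies before each start site. RefSeq windows of 250 bases (build GRCm38.p6) were available for 9 of the 10 genes, all but Alox5ap. Windows are printed from their 5′ end up to the first base that the deposited files count as an exon of the gene. The Tbxas1 window lies before a RefSeq start inside the gene as the files draw it. Capitals mark the letters AGGAAGTG, the core bound by PU.1 and other ETS factors. Ltc4s (ENSMUSG00000020377.15, GRCm38 chromosome 11, 50236461 to 50238616, minus strand) is shown for its rise, at chr11:50238617-50238782, minus strand. Tbxas1 (ENSMUSG00000029925.13, chromosome 6, 38875404 to 39084585, plus strand) also rose and is shown at chr6:38918736-38918979, plus strand. Lta4h (ENSMUSG00000015889.8, chromosome 10, 93453411 to 93484875, plus strand) fell and is shown at chr10:93453146-93453395, plus strand. For Hpgds (ENSMUSG00000029919.5, chromosome 6, 65117293 to 65144908, minus strand), which rose, the letters lie inside a counted exon, so 28 bases are shown, at chr6:65144761-65144788, minus strand.
Ltc4s: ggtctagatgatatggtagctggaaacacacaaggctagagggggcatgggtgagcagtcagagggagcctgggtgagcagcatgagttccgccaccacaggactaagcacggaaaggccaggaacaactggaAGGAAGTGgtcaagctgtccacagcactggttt
Tbxas1: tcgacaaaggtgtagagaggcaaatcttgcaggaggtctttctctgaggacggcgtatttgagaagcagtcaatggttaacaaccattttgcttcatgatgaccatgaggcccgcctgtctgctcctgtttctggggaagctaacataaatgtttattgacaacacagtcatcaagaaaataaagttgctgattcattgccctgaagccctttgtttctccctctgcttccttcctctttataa
Lta4h: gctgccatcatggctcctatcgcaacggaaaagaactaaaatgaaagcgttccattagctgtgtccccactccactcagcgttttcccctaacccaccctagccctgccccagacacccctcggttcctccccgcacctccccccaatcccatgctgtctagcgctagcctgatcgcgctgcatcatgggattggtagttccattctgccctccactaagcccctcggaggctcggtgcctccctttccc
Hpgds: ttttaggtggAGGAAGTGgcctctggct
AGGAAGTG stood 117 to 110 bases before the RefSeq start of Ltc4s and 48 to 41 bases before that of Hpgds, in the gene's own orientation in both. It was searched on both strands, after the sequences had been seen, and was found in 2 of the 9 windows and in 3.14% of 32851 RefSeq windows of the same length. Of the other patterns searched on both strands, the AP-1 letters TGANTCA matched 61 to 55 bases before the Tbxas1 start (6.75% of all windows hold them). TATAAA also matched before Tbxas1, on both strands with overlap (12.4% of windows). The E-box CATGTG matched before Hpgds (12.3% of windows), and the GC box GGGCGG before Alox5, Ptgs2, Ptges and Hpgd (32.7% of windows). A match describes letters only and does not show a bound site.

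Of the 10 enzyme genes, 3 rose in CD206pos, and 1 fell. Ltc4s rose 11.03-fold, the thromboxane synthase gene Tbxas1 4.03-fold and the prostaglandin D2 synthase gene Hpgds 2.91-fold, while Lta4h was 1.62-fold lower. The other 6 genes, among them both cyclooxygenase genes, did not pass the test. All 10 passed the filter on low counts. Among all tested genes 2.97% were called higher and 1.90% lower, 4.87% in either direction. DESeq2 called the same 4 members in the same directions, and 5.21% of all genes higher and 4.35% lower. Groups were fully apart for 5 of the 10 genes (3 higher, 2 lower). Of all tested genes 12.8% were higher and 11.8% lower in this way, 24.6% in either direction. The median log2 fold change of the 10 genes was 0.18, beside -0.004 over all tested genes. The plot of levels by library shows each gene in the 6 libraries.

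**Figure D1:**
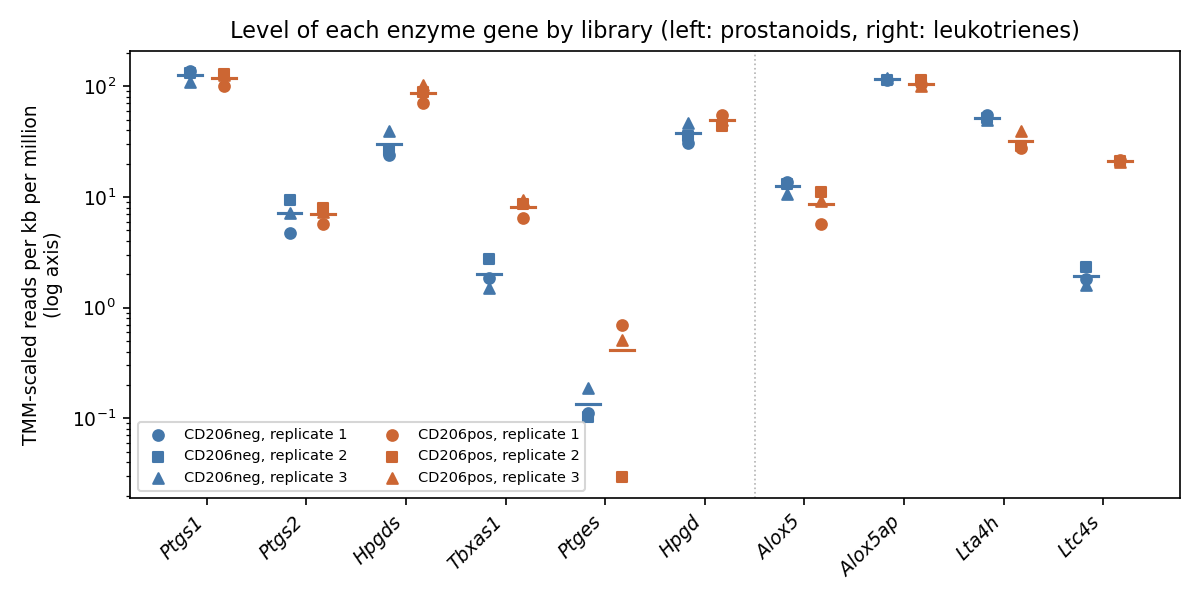
Level of each gene in each library, as TMM-scaled reads per kilobase of exon (RPKM) on a log axis. Points are libraries (marker shape gives the replicate number), short lines are group means, and the dotted line separates prostanoid genes (left) from leukotriene genes (right). Ltc4s, Tbxas1 and Hpgds have all CD206pos points above all CD206neg points, and Ptgs1 and Alox5ap have the highest means in both groups.

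The cyclooxygenases open the prostanoid branch. Ptgs1 encodes COX-1, the constitutive isoform, and was at 533.5, 514.6 and 425.5 CPM in CD206neg (replicates 1, 2 and 3) and at 387.3, 499.1 and 496.9 CPM in CD206pos. The groups overlapped, and the log2 fold change was -0.09 ± 0.15 (adjusted p = 0.848). Its sign turned without CD206pos replicate 1 (0.02) and without both libraries numbered 1 (0.08). Ptgs2 encodes COX-2, the isoform that stimuli induce, and was at 21.5, 43.2 and 32.7 CPM in CD206neg and at 25.9, 36.5 and 33.4 CPM in CD206pos. These ranges overlapped almost fully, with a log2 fold change of -0.025 ± 0.29 (adjusted p = 0.983) whose sign turned without CD206pos replicate 1 (0.10), without CD206neg replicate 2 (0.24) and without both libraries numbered 2 (0.095). Ptgs2 is an early response gene. In the same libraries 5 of 10 other immediate early and dissociation response genes rose and none fell, beside 2.97% and 1.90% of all tested genes. The summed level of the 10 was 5087 to 5492 CPM in CD206neg and 7776 to 9957 CPM in CD206pos. Any link of these genes to Ptgs2 was not tested. Per length, Ptgs1 stood at 126.5 ± 14.9 RPKM in CD206neg and 119 ± 16.5 RPKM in CD206pos, against 7.09 ± 2.37 and 6.97 ± 1.19 RPKM for Ptgs2.

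Hpgds, the haematopoietic prostaglandin D synthase, was at 152.6, 170.6 and 255.8 CPM in CD206neg and at 458.9, 570.9 and 657.7 CPM in CD206pos. Every CD206pos library lay above every CD206neg library, and the group means were 193 ± 55.1 and 562 ± 99.7 CPM. The log2 fold change was 1.54 ± 0.22 (adjusted p = 0.00714). The Hpgds call was lost when CD206neg replicate 2 was left out (1.46, adjusted p = 0.0608) or both libraries numbered 2 (1.42, adjusted p = 0.206).

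Tbxas1, which makes thromboxane A2, was at 16.8, 24.9 and 13.6 CPM in CD206neg and at 58.2, 78.5 and 86.1 CPM in CD206pos. The groups did not overlap, with means of 18.4 ± 5.84 and 74.3 ± 14.4 CPM. The log2 fold change was 2.01 ± 0.28 (adjusted p = 0.00617), a call lost without both libraries numbered 2 (2.21, adjusted p = 0.0948) or numbered 3 (1.68, adjusted p = 0.0847).

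Ptges, the inducible microsomal prostaglandin E synthase, had few reads: 8, 7 and 13 in CD206neg and 45, 2 and 35 in CD206pos. CD206pos replicate 2 had the lowest level of the 6 libraries and the other CD206pos libraries the highest, so the groups overlapped (log2 fold change 1.62 ± 1.21, adjusted p = 0.581). Without CD206pos replicate 2 the Ptges value was 2.14 (adjusted p = 0.435). Hpgd, the dehydrogenase that inactivates prostaglandins, was at 51.6, 59.7 and 78.3 CPM in CD206neg and 91.8, 73.2 and 83.8 CPM in CD206pos. CD206neg replicate 3 reached into the CD206pos range, and the gene did not pass (log2 fold change 0.39 ± 0.20, adjusted p = 0.383).

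**Figure D2:**
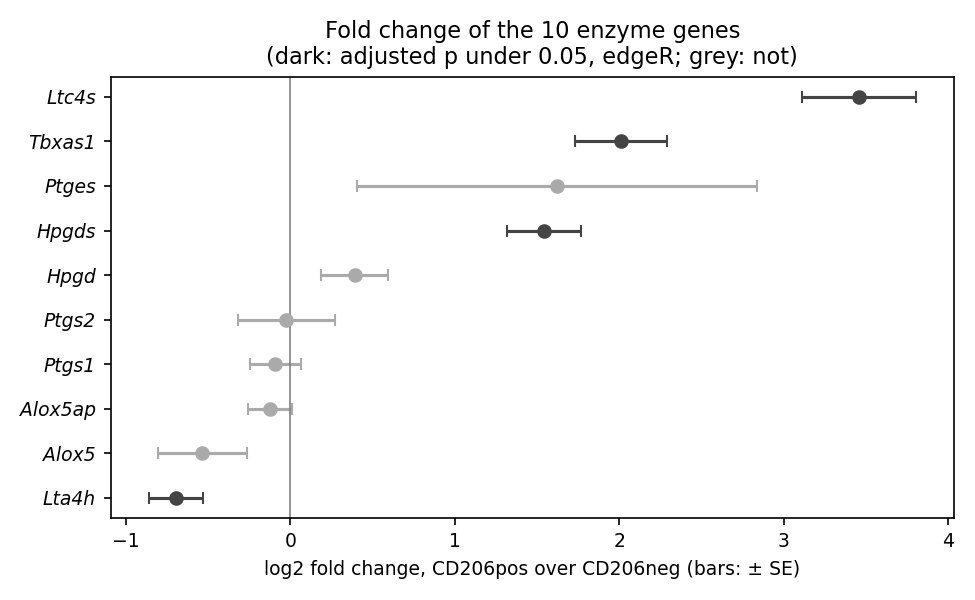
Log2 fold change of CD206pos over CD206neg for the 10 genes, with bars of ± SE from edgeR. Dark points passed an adjusted p under 0.05 and grey points did not, with Ltc4s at 3.46 and Lta4h at -0.70 as the ends of the range.

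On the leukotriene side, the genes for the first step did not pass the test. Alox5, the lipoxygenase itself, was at 56.5, 54.2 and 43.7 CPM in CD206neg and at 23.6, 45.6 and 37.4 CPM in CD206pos. CD206pos replicate 1 was the lowest and replicate 2 reached into the CD206neg range (log2 fold change -0.54 ± 0.27, adjusted p = 0.363). Without CD206pos replicate 1 the Alox5 value was -0.32 (adjusted p = 0.481). Alox5ap, which presents arachidonic acid to the lipoxygenase, was at 162.2, 162.2 and 167.7 CPM in CD206neg and 147.8, 161.6 and 142.1 CPM in CD206pos. The CD206pos libraries all lay lower, by a narrow margin (log2 fold change -0.13 ± 0.13, adjusted p = 0.727). Of its exonic bases 13.3% are shared with the predicted gene Gm19719, and reads there were not counted.

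Lta4h, the hydrolase of the leukotriene B4 branch, was at 335.6, 315.1 and 303.7 CPM in CD206neg and at 170.7, 177.5 and 240.6 CPM in CD206pos. The groups did not overlap, and CD206pos replicate 3 lay nearest to CD206neg. Lta4h fell by 0.70 ± 0.16 on the log2 scale, and its adjusted p of 0.0483 was close to the threshold. With RLE scaling it was 0.0502, and the call was lost without any single library except CD206pos replicate 3 (adjusted p between 0.098 and 0.214) and without both libraries of any number (between 0.0648 and 0.398). Without CD206pos replicate 3 the Lta4h log2 fold change was -0.90 (adjusted p = 0.0245).

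Ltc4s, the synthase of the cysteinyl branch, had 34, 41 and 29 reads in CD206neg and 361, 375 and 364 reads in CD206pos. As CPM this was 1.85, 2.37 and 1.63 against 22.0, 21.5 and 21.0, and the CD206pos libraries lay close together. The log2 fold change was 3.46 ± 0.34 (adjusted p = 0.00148), from 1.95 ± 0.38 to 21.5 ± 0.51 CPM. It stayed called in each fit with 1 library left out, and among all alternatives run it was lost only without both libraries numbered 2 (3.59, adjusted p = 0.0776). Of its exonic bases 26.4% are shared with the predicted gene Gm26542, so the level per length is understated by an unmeasured amount.

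The order of the levels per length differed in its middle. In CD206neg the order by RPKM was Ptgs1 (126.5), Alox5ap (115.5), Lta4h (52.1), Hpgd (37.6), Hpgds (30.0), Alox5 (12.5), Ptgs2 (7.09), Tbxas1 (2.03), Ltc4s (1.92) and Ptges (0.133). The libraries of 3 neighbouring pairs overlapped there: Ptgs1 with Alox5ap, Hpgd with Hpgds, and Tbxas1 with Ltc4s. In CD206pos it was Ptgs1 (119), Alox5ap (106), Hpgds (87.5), Hpgd (49.3), Lta4h (32.2), Ltc4s (21.2), Alox5 (8.65), Tbxas1 (8.17), Ptgs2 (6.97) and Ptges (0.414). Ptgs1 overlapped with Alox5ap, Alox5ap with Hpgds, Alox5 with Tbxas1 and Tbxas1 with Ptgs2. Hpgds thus stood below Lta4h and Hpgd in CD206neg and above both in CD206pos, and Ltc4s below Alox5 and Ptgs2 in CD206neg and above both in CD206pos.

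Ratios of reads within a library do not depend on scaling, and 4 were compared with an exact two-sided permutation test, which with 3 against 3 libraries cannot give a p below 0.10. The log2 ratio of Ltc4s to Lta4h, the enzymes that share leukotriene A4 as substrate, was -7.48, -7.04 and -7.52 in CD206neg and -2.95, -3.05 and -3.51 in CD206pos. The groups did not overlap, and the difference of 4.17 (18.1-fold) had an exact p of 0.1 (0.4 adjusted over the 4 ratios). Since Ltc4s was higher and Lta4h lower without overlap, this outcome was fixed in advance and adds nothing to the results of the single genes. The log2 ratio of Alox5ap to Alox5 was 1.68 ± 0.23 in CD206neg and 2.13 ± 0.45 in CD206pos, a difference of 0.45 with overlap (exact p = 0.3, adjusted 0.6). That of Ptgs2 to Ptgs1 was -3.97 ± 0.58 and -3.86 ± 0.07, a difference of 0.11 (exact p = 1.0) that became -0.22 without CD206neg replicate 1. The log2 ratio of Hpgds to Ptges was 8.46 ± 0.14 and 9.22 ± 2.42, and its difference of 0.76 (exact p = 1.0) became -0.61 without CD206pos replicate 2, the library with 2 Ptges reads.

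The genes of 9 enzymes that act on prostaglandin H2 directly were set side by side, and their levels per length were set against their sum in each library, as a description. Hpgds made up 27.8%, 25.4% and 34.7% of this sum in CD206neg and 40.7%, 45.6% and 47.4% in CD206pos. Tbxas1 made up 2.03% ± 0.67 and 4.15% ± 0.44. Prxl2b, a prostaglandin F synthase gene, made up 26.12% ± 4.96 and 33.05% ± 2.76. All shares are of the same sum, so a gain in some lowers the others. The shares of Ptges3, the cytosolic prostaglandin E synthase that is also an Hsp90 co-chaperone, were 33.6% ± 4.06 in CD206neg and 14.3% ± 6.01 in CD206pos. Its own level was 74.8 ± 7.0 and 60.1 ± 19.2 CPM and did not pass the test (adjusted p = 0.584). Ptges made up 0.130% ± 0.032 and 0.217% ± 0.193, and Ptgds, the lipocalin-type prostaglandin D synthase, had no read in any library. Of the prostaglandin D2 synthase genes, Hpgds was thus the one with reads.

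**Figure D3:**
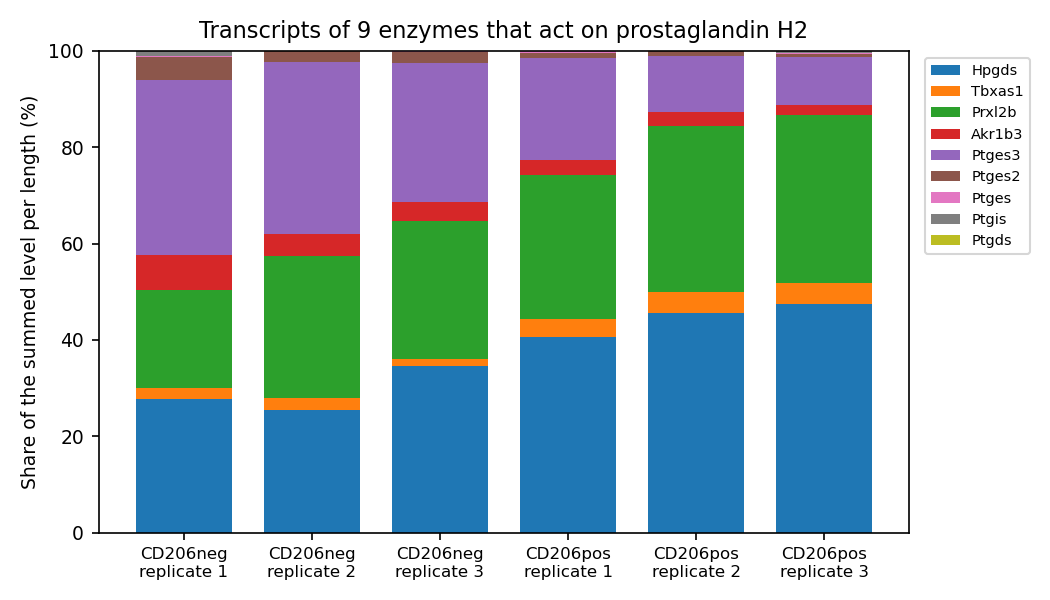
Share of each of 9 genes in their summed level per kilobase of exon, in percent, for each library. The Hpgds share lies between 25.4% and 34.7% in the CD206neg libraries and between 40.7% and 47.4% in the CD206pos libraries.

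Around these enzymes, 50 further genes of the pathway were examined in lists of phospholipases, lipoxygenases, synthases, breakdown enzymes, transporters and receptors. Of these 28 passed the filter, 1 rose, 2 fell and 25 did not pass the test, with a median log2 fold change of -0.54. Over all tested genes 2.97% were called higher and 1.90% lower, and the median was -0.004. Groups were fully apart for 8 of the 28 genes with CD206pos higher and for 11 with it lower. Of all tested genes 12.8% and 11.8% were apart in these ways. Among the pathway genes apart, Ltb4r1, Ptgir and Tbxa2r passed the filter only through CD206neg reads, so they could count only as lower. Ggt5 passed only through CD206pos reads, so it could count only as higher. The median includes these genes. The gene that rose was Prxl2b, which encodes a prostaglandin F synthase. It was at 17.9, 31.5 and 33.8 CPM in CD206neg and 53.9, 68.8 and 77.4 CPM in CD206pos (log2 fold change 1.27 ± 0.28, adjusted p = 0.0412). The Prxl2b call was lost with library totals as the only scaling (adjusted p = 0.0616) and without any 1 library or both of a number (adjusted p between 0.0519 and 0.327). No phospholipase passed, with Pla2g4a, the cytosolic enzyme that releases arachidonic acid on stimulation, at 390 ± 92.7 and 343 ± 32.6 CPM (adjusted p = 0.70). None of the 5 other lipoxygenase genes passed the filter. Alox15 and Alox12b had no read in any library, and the highest of the list, Alox8, had 3 to 53 reads per library.

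Among the receptors, 2 genes fell. Of the 9 prostanoid receptor genes 5 were tested. Ptger1, which was below the filter, was higher in CD206pos, with 1, 5 and 2 reads in CD206neg and 17, 16 and 7 in CD206pos. The 5 tested genes had a median log2 fold change of -2.15. Groups were apart, with CD206pos lower, for 4 of these 5, beside 11.8% of all tested genes. Among the 4, Ptgir (41, 30 and 47 reads against 2, 0 and 0) and Tbxa2r passed the filter only through CD206neg reads. These 2 genes could count only as lower, and the median includes them. Ptger3, a receptor for prostaglandin E2, fell from 48.4, 44.8 and 44.7 CPM in CD206neg to 25.9, 12.9 and 14.4 CPM in CD206pos (log2 fold change -1.37 ± 0.30, adjusted p = 0.038). The Ptger3 call was lost on leaving out each CD206neg replicate in turn, and either of CD206pos replicates 2 and 3 (adjusted p from 0.0996 to 0.137), and on leaving out both libraries numbered 2 or numbered 3 (0.316 and 0.194). Tbxa2r, the thromboxane receptor gene, had 117, 15 and 57 reads in CD206neg and 0 in each CD206pos library, at least 60.3-fold lower against 3 reads over the group (adjusted p = 0.038). CD206neg replicate 1 held most of these reads, and without it the bound was 35.0-fold. Without CD206pos replicate 1, 2 or 3 it was 41.0-, 39.7- or 39.9-fold, and without CD206neg replicate 2 or 3 it was 82.1- or 63.1-fold. Tbxa2r did not pass in limma-voom (adjusted p = 0.0938), nor on leaving out any 1 library or both of a number (between 0.0702 and 0.174). Tbxa2r passed the filter only through its CD206neg reads, so a call could only be a fall. Tbxas1 thus rose in the group in which the receptor of its product had no reads. Cysltr1, a receptor for cysteinyl leukotrienes, was at 18.2, 35.3 and 38.1 CPM in CD206neg and 41.6, 65.7 and 79.9 CPM in CD206pos. Its groups did not overlap, and it did not pass (log2 fold change 1.03 ± 0.34, adjusted p = 0.149, and 0.0417 with DESeq2). The prostaglandin D2 receptor genes Ptgdr and Ptgdr2 had 0 reads in all 6 libraries, where 3 reads stand for 0.165 to 0.179 CPM.

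**Figure D4:**
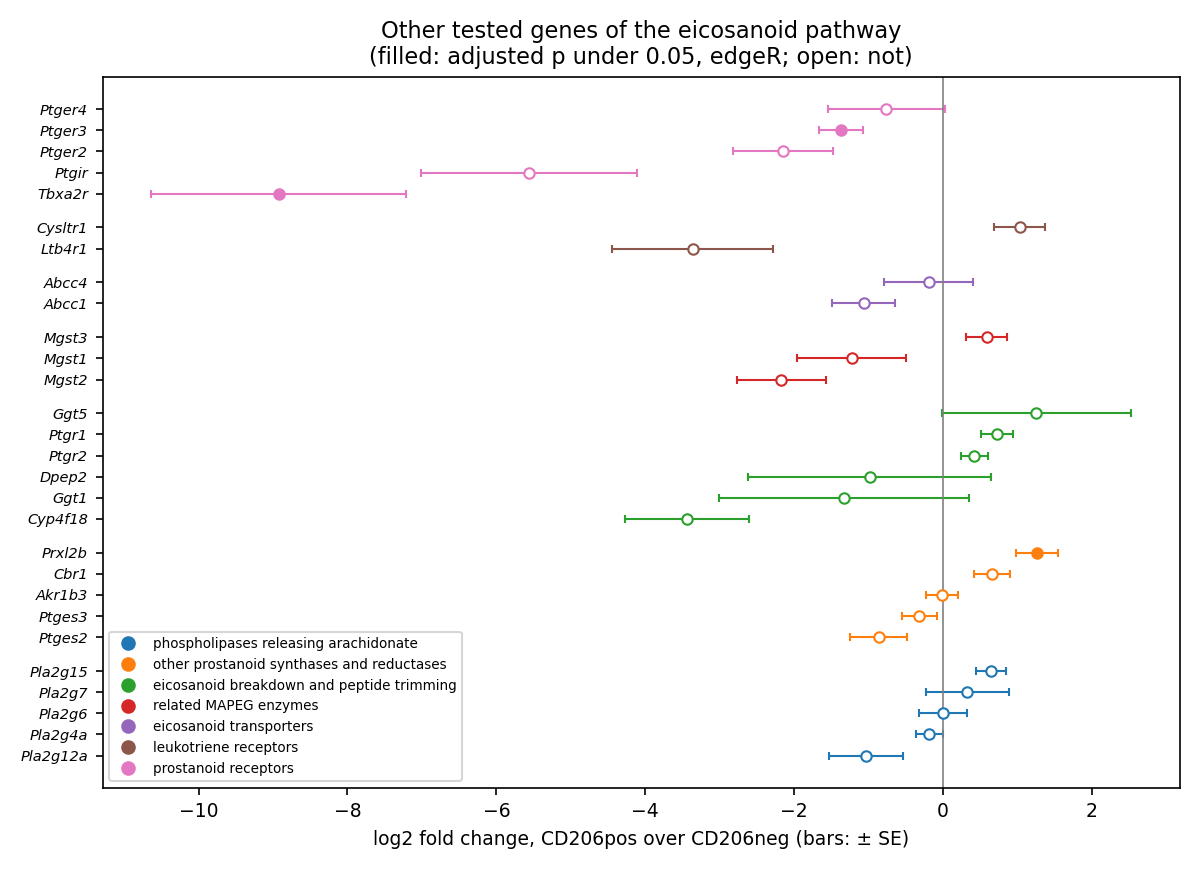
Log2 fold change of CD206pos over CD206neg with bars of ± SE for the 28 other pathway genes that passed the filter, coloured by list. Filled points passed an adjusted p under 0.05 in edgeR (Prxl2b, Ptger3 and Tbxa2r), and the fitted value of Tbxa2r rests on 0 reads in CD206pos and is no bound.

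Some markers of other cell types that make eicosanoids had reads in the libraries, which does not show that these cell types were present. Mast cells and basophils are known to express Ltc4s, Hpgds and Alox5, and their markers summed to 29.7 to 77.4 CPM in CD206neg and 0 to 0.629 CPM in CD206pos. Both tested genes of this list fell, Cpa3 and Hdc, beside 1.90% of all tested genes, and Cpa3 was at 0 in every CD206pos library. Cpa3 and Hdc passed the filter only through their CD206neg reads, so a call could only be a fall. Of the list of 10, 9 were at 0 throughout CD206pos, 6 of them in CD206neg as well. Hdc made up most of the sum in CD206neg (42.7 ± 25.8 CPM). Within CD206neg, replicate 3 had the highest Hpgds level and the lowest Ltc4s and Alox5 levels (1.63 and 43.7 CPM). It also had the highest sum of the mast cell and basophil markers. Their part in the levels of the enzyme genes was not tested. Platelets are known to express Tbxas1 and Ptgs1, and platelet and megakaryocyte markers summed to 22.8 to 31.9 CPM in CD206neg and 2.32 to 9.95 CPM in CD206pos. None of that list passed (2 of 8 tested). Itga2b made up most of the sum in CD206neg (21.0 ± 4.79 CPM, against 1.04 ± 1.80 CPM in CD206pos). Ppbp went the other way, with 2.55 ± 1.87 and 5.65 ± 4.34 CPM (log2 fold change 1.15 ± 0.90, adjusted p = 0.603), and Gp1bb, Gp6 and Gp5 had no read in CD206pos. The part of these markers in the Tbxas1 result was not tested. Granulocyte markers summed to 1853 to 2828 CPM in CD206neg and 17.3 to 69.6 CPM in CD206pos. Mpo made up most of the sum in CD206neg (1914 ± 394 CPM). All 5 tested of the 9 granulocyte markers fell, beside 1.90% of all tested genes. Ctsg, S100a8, S100a9, Camp and Ngp had no read in CD206pos. Elane, S100a8 and S100a9 passed the filter only through CD206neg, so they could only fall. Like Lta4h, Ptger3 and Tbxa2r, the tested granulocyte markers were lower in CD206pos. Within CD206neg, replicate 1 had the lowest sum of granulocyte markers and the highest levels of Lta4h, Ptger3 and Tbxa2r. The part of these markers in the differences of the 3 genes was not tested. Endothelial markers summed to 95.4 to 197 CPM and 30.7 to 52.3 CPM, with none of 7 tested called, and mesenchymal markers to 3.15 to 74.5 CPM and 1.95 to 60.7 CPM, with none of 5 tested called.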

How the data were processed

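RNA of 6 libraries of sorted cells was counted per gene. The deposited files hold raw whole-number read counts, which the authors made with featureCounts 1.5.2 over exons of GENCODE vM14, per the file headers, where the recorded command sets neither strand nor pairing and keeps the defaults for reads with several hits or on several genes. Sense and antisense reads therefore cannot be told apart, and by the program's defaults reads on overlapping genes are left out. The submitters' processing notes name STAR 2.3 and the builds mm10 and GRCm38.p5. Tissue was dissociated in collagenase (45 min, 37 degrees Celsius), per the labels' protocols.

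Symbols came from GENCODE release names by identifier without version (51633 of 51912 matched). Coordinates are those of the files (GRCm38). The test across genes was run in edgeR 4.0.16 under R 4.3.3 (filterByExpr, TMM, robust quasi-likelihood F test without a replicate block, Benjamini-Hochberg over all tested genes, threshold 0.05), and the fit was tested on simulated data. The SE is the log2 fold change divided by the square root of F. Ratios used 0.5 added reads. The title numbers were not taken to pair the libraries, since no label ties a number to a litter. Libraries of a group differed far beyond sampling noise (chi-square over its degrees of freedom from 36.9 to 90.4). Reads carry no molecular identifiers, so floors cover counting error only. Alternatives were the title number as a block, RLE and library-total scaling, no filter beyond 1 read, a filter of 5 CPM in at least 3 libraries, limma-voom (limma 3.58.1), DESeq2 1.42.0, 3 added reads in ratios, and leaving out each library and both libraries of each number. Named genes are all 10 members, every called gene of the other pathway lists and, in a list without a call, the gene highest per length. Others named (Ptges3, Ptgds, Alox15, Alox12b, Ggt5, Ptger1, Ptgir, Ptgdr, Ptgdr2, the single marker genes and the genes of the closing section) were chosen after their values were seen. The members and lists were chosen with earlier results of these data known.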

Additional observations from a re-analysis of the deposited data

How the results depend on the processing

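The rises of Ltc4s, Hpgds and Tbxas1 kept their direction in all 16 alternatives each, with log2 fold changes of 3.33 to 3.62, 1.39 to 1.80 and 1.68 to 2.29. They were past the threshold in 15, 14 and 14 of these, and Lta4h in 7 of 16 (-0.94 to -0.57). With a library or both libraries of a number left out, 0 to 3 of the 10 enzyme genes were called higher and 0 to 1 lower, of the other pathway genes 0 higher and 0 to 1 lower, and of all genes 2 to 355 higher and 1 to 206 lower, against 376 and 241 with all libraries. Fewer libraries were tested in each. The lowest counts, 2 and 1, came without both libraries numbered 2. With RLE scaling 0 enzyme genes were called lower, and with library totals 0 other pathway genes were called higher. DESeq2 called 660 genes higher and 550 lower (5.21% and 4.35%), among the other pathway genes 4 higher and 7 lower. Deviations from group means correlated at 0.089, 0.039 and 0.18 between same-numbered libraries, and 5 of 6 libraries correlated best with their own number, a hint from the data, not the design. With the number as a replicate block 2 other pathway genes were called higher (Prxl2b and Cysltr1, adjusted p = 0.0148 and 0.0249), Tbxa2r did not pass (0.0794), Cyp4f18 was gained (adjusted p = 0.0195), and no call of the 10 enzyme genes changed. For these, the cause was not tested. The log2 fold change of Ptgs2 changed sign with the block (0.016) and ranged from -0.25 to 0.24 with libraries left out, and that of Ptgs1 from -0.27 to 0.083. Both values lie near 0. Leaving out 1 library gave differences of 4.07 to 4.35 for the log2 ratio of Ltc4s to Lta4h, 0.20 to 0.61 for Alox5ap to Alox5, -0.22 to 0.31 for Ptgs2 to Ptgs1 and -0.61 to 1.68 for Hpgds to Ptges. In paired form the ratio tests gave exact p values of 0.25, 0.5, 1.0 and 1.0. Ptges gave no value without both libraries numbered 3 or with the stricter filter, nor did Tbxa2r with the latter, since they fell below the filter there.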

Other observations

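Several genes of the leukotriene pathway outside the enzyme set had groups without overlap and did not pass the test, and they are given as values. Of all tested genes 24.6% had groups without overlap. Ltb4r1, the high-affinity receptor for leukotriene B4, had 97, 273 and 203 reads in CD206neg and 26, 0 and 27 in CD206pos (log2 fold change -3.36 ± 1.08, adjusted p = 0.141, and 0.00767 with DESeq2). Ltb4r1 passed the filter only through its CD206neg reads, so a call could only be a fall. Cyp4f18, a cytochrome that breaks down leukotriene B4 in mouse neutrophils, ranged from 36.3 to 62.8 CPM in CD206neg, against 0.672, 1.83 and 10.7 CPM in CD206pos (adjusted p = 0.0553, 0.0172 with DESeq2, 0.0152 with limma-voom, 0.0227 with the filter of 5 CPM in 3 libraries, 0.0057 without CD206pos replicate 3 and 0.0172 without both libraries numbered 3). In 10 of its 16 alternatives Cyp4f18 did not pass (adjusted p up to 0.356). Mgst2, a relative of Ltc4s in the MAPEG family that can also make leukotriene C4, averaged 10.8 ± 6.15 CPM in CD206neg against 2.40 ± 1.14 CPM in CD206pos (adjusted p = 0.087, and 0.011 with DESeq2). Mgst3, of the same family, was at 17.5 ± 4.21 and 26.4 ± 3.04 CPM (adjusted p = 0.312). Like Ltb4r1, Cyp4f18 and Mgst2, the granulocyte markers were lower in CD206pos, and their part was not tested.

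Genes of export and breakdown gave these values. Abcc1, which exports leukotriene C4, had 55.0, 61.1 and 42.2 CPM in CD206neg, against 36.2, 10.01 and 29.5 CPM in CD206pos, without overlap (adjusted p = 0.231). Ptgr1, which inactivates leukotriene B4 and prostaglandin metabolites, had 35.7, 41.2 and 50.6 CPM in CD206neg, against 69.4, 60.1 and 81.9 CPM in CD206pos, also without overlap (log2 fold change 0.73 ± 0.21, adjusted p = 0.104, and 0.035 with DESeq2). The prostaglandin transporter gene Slco2a1 had 0 reads in all 6 libraries.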
